A study of Mus musculus with 234 samples.

Results

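The creatine kinase and adenine nucleotide shuttle was followed through 7 genes, taken by their row names from the count table of single cardiomyocytes (CMs): Ckm, Ckb, Ckmt2, Slc25a3, Slc25a4, Slc25a5 and Ak1, which are 7 of 55538 features, each present as 1 row. A further 40 genes of creatine, adenine nucleotide and phosphate handling were examined as the surrounding pathway. The CMs came from 5 mice and carry 5 genotype labels: control (mice M26 and M73), homozygous CAG-BAG3P209L with bright eGFP (mice M25 and M116), homozygous with dim eGFP (the same 2 mice), and heterozygous bright and heterozygous dim (both from mouse M72). In these mice PGK-Cre, which is active in the whole body and the germ line, had removed a STOP cassette ahead of a human BAG3 P209L-eGFP fusion driven by the ubiquitous CAG promoter from the Rosa26 locus, and the line came from a single embryonic stem cell clone. Homozygous mice held the construct on both alleles, with the cassette removed from 1 or both. In heart sections from older mice, the study detected the fusion by immunofluorescence only in CMs. Both control mice are labelled wt, while the study defines its controls as siblings that were wild type or carried only PGK-Cre or only the unrecombined construct, and the labels give C57BL/6 as strain for the control mice and PGKcre:BAG3P209L_homo or PGKcre:BAG3P209L_het for the others, while the study's methods describe a mixed background. Homozygous and control mice were 2 weeks old, and the age of mouse M72 was not given in the sources used here. The bright and dim classes were set from eGFP under a fluorescence macroscope, and CMs were picked by hand after Langendorff digestion, 1 per well.

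A beating cardiomyocyte turns over its ATP within seconds and holds only a small store, so high-energy phosphate has to be passed quickly from mitochondria to myosin and the ion pumps. In the mitochondrion, the phosphate carrier brings phosphate in for ATP synthase and the adenine nucleotide translocases exchange matrix ATP for cytosolic ADP, while mitochondrial creatine kinase on the outer face of the inner membrane hands the phosphate to creatine. Phosphocreatine then diffuses to the myofibrils, where cytosolic creatine kinase dimers of M and B subunits regenerate ATP, and adenylate kinase adds a second route by turning 2 ADP into ATP and AMP. The B subunit and the second translocase are the forms best known from non-muscle, fetal or proliferating cells, and M-type creatine kinase and the first translocase are those of mature striated muscle.

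Both isoform pairs are close in sequence, and whether a short read can tell them apart bears on every share given here. The coding sequences of Ckm and Ckb, each 1146 bases long, were identical at 75.8% of aligned positions, and those of Slc25a4 and Slc25a5, each 897 bases long, at 77.5% (GENCODE vM21 transcripts). The longest run of bases that both members of a pair share was 20 bases in each pair, well under the 75-base reads. The stretches around these runs are printed here because they are the places where the isoforms are hardest to separate, with the shared run in capitals and everything else in lower case. They cover coding bases 58 to 137 of Ckm and Ckb and 292 to 371 of Slc25a4 and Slc25a5, counted from 1 at the A of the start codon.
Ckm: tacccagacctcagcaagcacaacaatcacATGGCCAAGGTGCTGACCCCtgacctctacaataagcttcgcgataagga
Ckb: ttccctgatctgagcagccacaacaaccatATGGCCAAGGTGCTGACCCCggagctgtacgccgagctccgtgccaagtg
Slc25a4: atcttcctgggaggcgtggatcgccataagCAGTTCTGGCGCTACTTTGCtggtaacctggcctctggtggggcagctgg
Slc25a5: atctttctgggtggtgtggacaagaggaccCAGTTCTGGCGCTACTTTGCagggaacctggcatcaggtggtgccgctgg
Copies elsewhere in the genome matter more than the partner isoform. Of all 75-base windows, 27.9% of those of Slc25a5 and 13.4% of those of Ckb recurred exactly in another annotated transcript, mostly of processed pseudogenes, against 0% for Slc25a4 and Ak1. The counts that the table gives to the leading copies were small: 437 counts over all wells for the Slc25a5 copy Gm5560 beside 148941 for Slc25a5, and 234 for the Ckb copy Gm12892 beside 17485 for Ckb. Reads that matched both a gene and a copy were not analysed here, so the levels of Slc25a5 and Ckb are uncertain by an amount that these counts do not show. Ckm and Ckmt2 overlap annotated antisense genes, which held 70 and 135 counts over all wells, and the strand setting of the counting was not given in the sources used here.

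The B-type gene was the lowest of the members in every sum, so the windows before the starts of the 2 cytosolic creatine kinase genes are also shown, as RefSeq gives them for GRCm38.p6. Each holds the 250 bases that precede the annotated start, read in the direction of the gene. Capitals mark exact matches to the E-box letters CANNTG, the core bound by myogenic and other basic helix-loop-helix factors, and to TATAAA, on either strand and with no overlap between the motifs in these windows. The first is chr7:19410844-19411093 on the plus strand and the second is chr12:111672339-111672588 on the minus strand.
Ckm: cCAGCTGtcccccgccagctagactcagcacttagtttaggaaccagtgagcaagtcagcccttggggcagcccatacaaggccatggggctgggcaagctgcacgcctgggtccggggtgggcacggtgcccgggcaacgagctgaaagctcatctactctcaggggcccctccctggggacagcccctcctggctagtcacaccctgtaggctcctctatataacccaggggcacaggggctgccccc
Ckb: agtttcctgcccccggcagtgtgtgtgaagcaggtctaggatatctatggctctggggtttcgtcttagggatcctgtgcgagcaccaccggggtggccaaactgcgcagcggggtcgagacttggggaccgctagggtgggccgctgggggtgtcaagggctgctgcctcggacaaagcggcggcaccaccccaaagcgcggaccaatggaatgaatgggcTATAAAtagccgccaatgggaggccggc
The Ckm window held 1 E-box and no exact TATAAA. The Ckb window held 1 TATAAA, starting 28 bases before the start, and no E-box. Among 32851 promoter windows of this length, 66.2% held an E-box and 12.4% a TATAAA. These matches describe the letters of the windows and were not tested as binding sites.

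The table gives raw counts. The depth of a well ranged from 487 to 1392253 counts, and the median well had 711527. Of 234 wells, 219 had at least 1000 detected features. Counts were summed over the wells of each mouse and class into 8 sums of 4096609 to 40508124 counts, and a level is given as CPM, the counts of a gene for each 1000000 counts of that sum, in which deeper wells weigh more. The smallest sum is that of control mouse M73 (9 wells). Its wells were also the shallowest at the median, and 21.9% of its counts fell on mitochondrial ribosomal and transfer RNA against 9.54% to 17.4% in the other sums. As a check of the labels, hBAG (the human transgene) stood at 0.408 and 0.488 CPM in control sums, at 294 and 233 CPM in bright sums of M25 and M116, and at 10.7 and 99.6 CPM in their dim sums. In heterozygous mouse M72 it stood at 105 CPM in the library labelled bright and 251 CPM in the library labelled dim, the opposite of what the labels name, so its 2 classes are called "labelled bright" and "labelled dim" here. All 7 cardiomyocyte markers (Myh6, Tnnt2, Tnni3, Actc1, Ryr2, Pln, Ttn) had counts in every sum, at 65261 to 85852 CPM together.

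Among these CM libraries 3 wells stood apart, and all 3 belong to the bright class of mouse M25. Their cardiomyocyte markers summed to 201, 1886 and 4606 CPM, whereas the other 231 wells held 38546 to 147898 CPM. The first of them held 44924 CPM of the 6 fibroblast markers (Col1a1, Col1a2, Col3a1, Dcn, Lum, Pdgfra), with counts on all 6, together with 867 CPM of hBAG. That single well carried 1407 counts of Ckb at 1656 CPM and 2 counts each of Ckm and Ckmt2. The other 2 of these wells had 0 counts of Ckb, 231232 and 257487 counts in all, and 1117 and 938 detected features. Results that rest on this sum are given with and without these 3 wells, a choice made after the values were seen.

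The cytosolic creatine kinases came first. Ckm, the muscle subunit, stood at 1085 and 730.1 CPM in control mice M26 and M73, at 955 and 845 CPM in bright CMs of M25 and M116, at 1093 and 1020.4 CPM in their dim CMs, and at 785 and 610.1 CPM in the heterozygous libraries labelled bright and dim. Both homozygous dim sums lay above both bright sums, although bright CMs of M25 stood at 1023 CPM without the 3 wells, and the heterozygous mouse gave the lowest value of all. Group means were 908 ± 251 CPM in control, 900 ± 77.6 in bright and 1057 ± 51.6 in dim CMs (SD, n = 2 mice each).

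Ckb, the brain-type subunit, stood at 126 and 55.9 CPM in control, at 127 and 131 CPM in bright, at 61.6 and 99.9 CPM in dim CMs, and at 102 and 81.5 CPM in the heterozygous libraries labelled bright and dim. The bright sums were the highest, just above control mouse M26, but that of M25 fell from 127 to 56.8 CPM without the 3 wells, below the 61.6 CPM of dim CMs from the same mouse. In M116 no well held more than 7.51% of the Ckb counts of the bright sum, whereas 1 well held 58.5% of them in M25. In mouse M73 the sum rested on few wells too, with 86.5% of its 229 Ckb counts in 3 wells.

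Ckmt2, the sarcomeric mitochondrial creatine kinase, stood at 1964 and 1178 CPM in control, at 1263 and 1249 CPM in bright, at 1496 and 1414 CPM in dim CMs, and at 1194.5 and 1173 CPM in the heterozygous libraries labelled bright and dim. Control mouse M26 held the most, and control mouse M73 stood below every homozygous sum. The ubiquitous mitochondrial form, Ckmt1, had 2 counts over all wells, both in the heterozygous library labelled dim.

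Of the carriers, Slc25a4, the heart and muscle adenine nucleotide translocase, was the highest member throughout, at 9461 and 5514 CPM in control, 8580.3 and 7474 CPM in bright, 9238 and 7764 CPM in dim, and 7004 and 7439.7 CPM in the heterozygous libraries labelled bright and dim. Slc25a3, the mitochondrial phosphate carrier, stood at 2573 and 1631 CPM in control, 2152 and 2487 CPM in bright, 2414 and 2617 CPM in dim, and 2223 and 2108 CPM in the heterozygous libraries. Control mouse M73 was lowest for both carriers, and the 2 control mice bracketed every other sum of Slc25a4 and all but the dim CMs of M116 for Slc25a3.

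Slc25a5, the second translocase, varied most among the members. Its level was 925 and 286 CPM in control mice M26 and M73, 831 and 1182 CPM in bright CMs of M25 and M116, 817 and 1029 CPM in their dim CMs, and 559.7 and 581 CPM in the heterozygous libraries labelled bright and dim. The highest sum was 4.13 times the lowest, against 1.38 to 2.34 times for the other 6 genes. The values ordered by mouse rather than by class, since bright and dim CMs of the same mouse differed by factors of 1.02, 1.15 and 0.964 in M25, M116 and M72.

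Ak1, the cytosolic adenylate kinase of muscle, was the steadiest member. It stood at 667 and 490.2 CPM in control, 657 and 652 CPM in bright, 678 and 651 CPM in dim, and 571 and 550.2 CPM in the heterozygous libraries. The 4 homozygous sums spanned only 651 to 678 CPM, close to control mouse M26 and above M73.

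**Figure D1:**
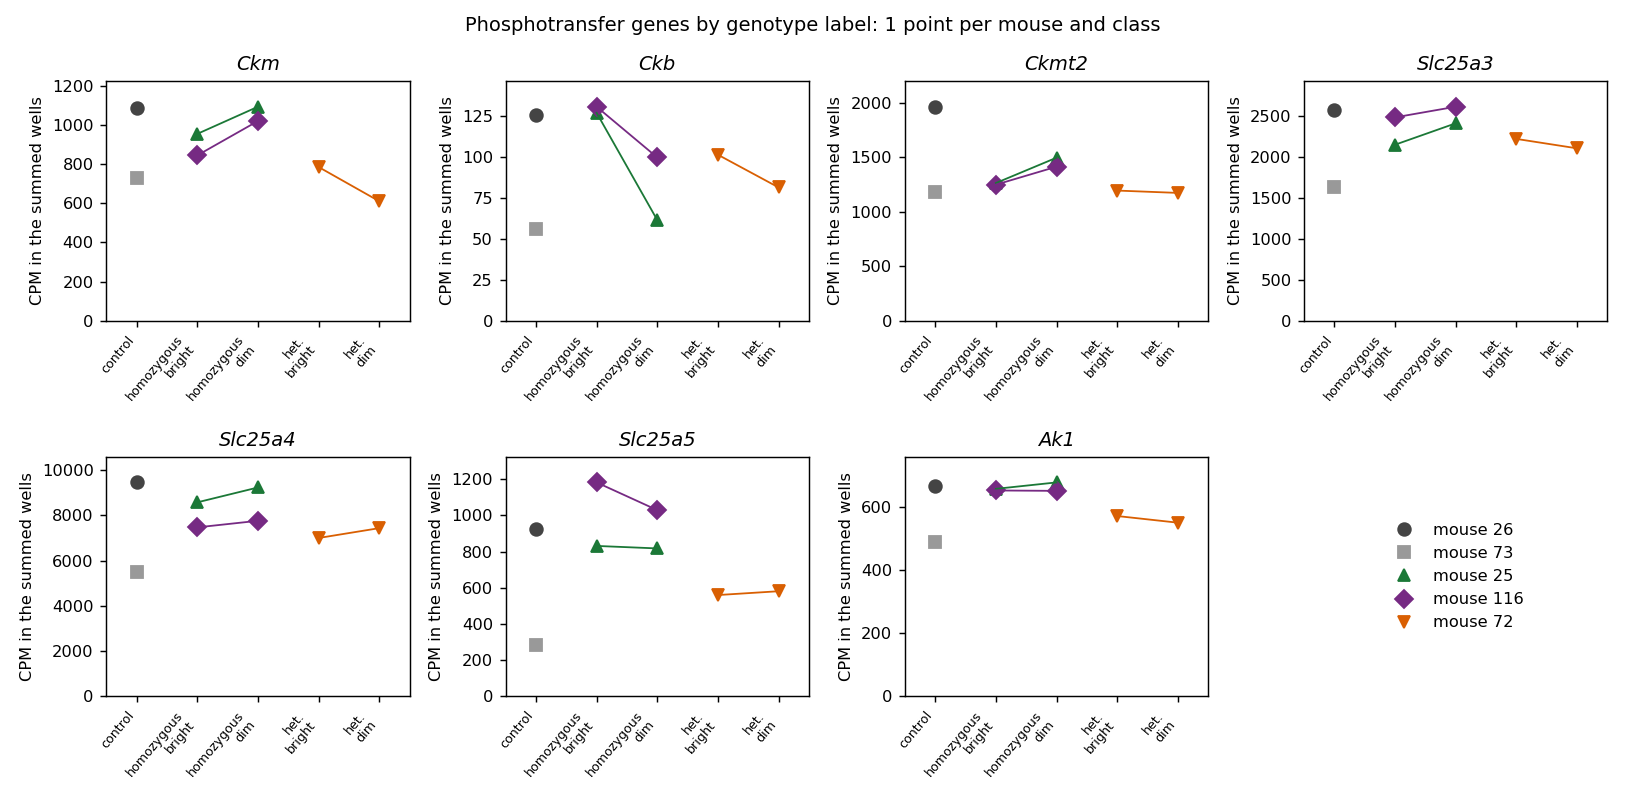
Level of each of the 7 genes in CPM (vertical axis, from 0) in the 8 sums, by genotype label, with 1 point per mouse and class and a line joining bright and dim CMs of the same mouse. Slc25a5 separates by mouse, from 286 CPM in M73 to 1182 CPM in bright CMs of M116, and Ckb of mouse M25 stands at 127 CPM in bright and 61.6 CPM in dim CMs, where the bright value is 56.8 CPM without the 3 wells low in cardiomyocyte markers (not drawn).

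To compare levels between genes, CPM were divided by transcript length. Per kilobase of transcript, Slc25a4 ranked first in all 8 sums (2864 to 4915 CPM per kb), Slc25a3 second (1217 to 1952) and Ckb last (38.0 to 88.9). Ckmt2 ranged from 789 to 1322 CPM per kb, Slc25a5 from 231 to 953, Ckm from 222 to 399 and Ak1 from 241 to 333. The order of these 4 changed between sums, and with coding length in place of transcript length Ckm spanned 532 to 954 and Ak1 774 to 1071 CPM per kb, so the places of Ckm, Ak1, Slc25a5 and Ckmt2 relative to each other were not fixed. The first, second and last places were the same on both lengths.

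The first comparison asked whether CMs with strong expression of the mutant co-chaperone differ from control CMs. No member passed the adjusted threshold of 0.05 in edgeR's quasi-likelihood test on the sums (0 of 7, against 0.0164% of 12203 features tested, which are 2 transgene features). None did with DESeq2 or with limma giving each well equal weight. A Wilcoxon test over wells with Bonferroni adjustment, the kind of test the study used, called none either. Its minimum natural log fold change of 0.25 let only Ckmt2 and Slc25a5 be called. At an unadjusted p under 0.05 there were 0 of 7 members, against 6.55% of all features. The lowest p was that of Ckmt2. After scaling by trimmed means (TMM), its levels were 1167 and 1085 CPM in bright CMs and 2065 and 1408 CPM in control CMs, so both bright sums lay below both controls, as for 14.8% of all features; without TMM the control value of M73 was the lowest of the 4. Its log2 fold change was −0.62 (SE 0.29, 95% interval −1.34 to 0.09, unadjusted p = 0.0757 and adjusted p = 0.838 in edgeR). In the edgeR fit of all 8 sums it was −0.61 (−1.19 to −0.02, unadjusted p = 0.0428, adjusted p = 0.716). With a block for the start of the library tag, described below, it was −0.60 (−1.17 to −0.03, edgeR unadjusted p = 0.0395, adjusted p = 0.9998). No alternative brought it past the adjusted threshold.

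For the other 6 members bright and control sums overlapped after scaling. The log2 fold change was −0.32 for Ckm (95% interval −1.004 to 0.37), −0.20 for Slc25a4 (−0.95 to 0.55), −0.17 for Slc25a3 (−0.85 to 0.51) and −0.13 for Ak1 (−0.78 to 0.52). It was 0.45 for Slc25a5 (−0.78 to 1.67) and 0.21 for Ckb (−0.82 to 1.25). With 2 mice per group, each of these intervals holds values on both sides of 0, so neither a rise nor a fall was established. The value of Ckb was −0.25 without the 3 wells, −0.19 without control mouse M73 and 0.81 without control mouse M26, and that of Slc25a5 was −0.12 without control mouse M73 and 1.41 without control mouse M26. TMM also sets the sign of some values: the median log2 fold change of all features was 0.11 with it and 0.41 with library sizes alone, on which Slc25a3, Slc25a4 and Ak1 stood at 0.14, 0.10 and 0.18. Ckm stood at −0.01 with library sizes alone, at −0.09 without control mouse M26 and at −0.50 without control mouse M73.

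Single pairs of mice did not give the same picture. The labels carry a library tag, GL-9122b for M25 and M26, GL9989-1 for M72 and M73, and GL9989-2 or GL9989-3 for M116, and do not say what it stands for. In the pair M25 and M26, which share a tag, bright CMs held 0.643 times the Ckmt2 of control CMs, and in the pair M116 and M73, which share only the start of the tag, 1.06 times. For Slc25a5 the factors were 0.899 and 4.13, and for Ckb 1.01 and 2.34. These factors are in CPM without TMM, and mouse and genotype cannot be told apart within a pair, nor can the tag and the depth of M73 in the second.

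The second comparison set dim CMs of the same homozygous mice against the same 2 control mice, and therefore shares its controls with the first. Again 0 of 7 members passed the adjusted threshold in edgeR (0% of 12195 features) and 0 of 7 had an unadjusted p under 0.05 (6.22% of features), and DESeq2 and limma called 0 of 7. The value of Slc25a5 depended on how wells were weighted: with limma and equal weight for each well its log2 fold change was 1.80 (adjusted p = 0.45) in dim and 1.52 (adjusted p = 0.548) in bright against control CMs. In the edgeR fit Ckmt2 had a log2 fold change of −0.39 (SE 0.33, 95% interval −1.17 to 0.39), Ckb of −0.45 (−1.60 to 0.70) and Slc25a5 of 0.34 (−0.86 to 1.55). The remaining members stood at −0.06 for Ckm, −0.09 for Slc25a4, −0.02 for Slc25a3 and −0.08 for Ak1, and dim and control sums overlapped for all 7.

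The third comparison set bright against dim CMs of the same 2 homozygous mice. Its main fit had no term for the mouse and took the sums as independent, and the fit with the mouse as a block follows the main values. No member passed the adjusted threshold in edgeR (0 of 7, against 0% of 13439 features; unadjusted p under 0.05 in 0 of 7, against 4.12%), and DESeq2 and limma called 0 of 7. Bright CMs held less Ckm, Ckmt2, Slc25a3, Slc25a4 and Ak1 than dim CMs after TMM in both mice, 5 of 7 members where 25.4% of all features were lower in both, and more Ckb and Slc25a5, 2 of 7 where 25.4% were higher in both. These counts are a description, since the members share their wells, and they change without the 3 wells: in CPM, bright CMs of M25 then held 56.8 of Ckb beside 61.6 in dim CMs, and 707 of Ak1 beside 678, so that neither kept its direction in this mouse.

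Ckb had the largest value, a log2 fold change of 0.66 (SE 0.28, 95% interval −0.04 to 1.35, unadjusted p = 0.0599, adjusted p = 0.999 in edgeR), and it stood at 0.18 (−0.84 to 1.20) without the 3 wells. Ckm stood at −0.26 (−0.75 to 0.23) and Ckmt2 at −0.24 (−0.68 to 0.19), and these were −0.21 and −0.19 without the 3 wells. With 1 sum left out at a time, Ckm ranged from −0.40 to −0.13, Ckmt2 from −0.31 to −0.16 and Ckb from 0.38 to 1.01. In CPM, bright CMs held 0.873 and 0.828 times the Ckm of dim CMs in M25 and M116, and 0.844 and 0.883 times the Ckmt2. The same direction was seen in the median well, at 0.901 and 0.859 times for Ckm and 0.806 and 0.860 times for Ckmt2. For Ckb the median well gave 0.856 and 0.984, the other direction from the sums. With the mouse number as a replicate block, 0 of 7 members passed as well, with unadjusted p = 0.0366 for Ckm, 0.0404 for Ckb and 0.0336 for Ckmt2 and adjusted p-values that round to 1 in the same edgeR fit, in which 3.48% of all features had an unadjusted p under 0.05. Without the 3 wells, this fit gave a log2 fold change of 0.11 for Ckb, −0.22 for Ckm and −0.19 for Ckmt2 (edgeR unadjusted p = 0.603, 0.0467 and 0.0314, adjusted p-values that round to 1), with 4.5% of all features under 0.05. With all wells and the heterozygous mouse added to the block under its own labels, Ckb stood at 0.61, Ckm at −0.013 and Ckmt2 at −0.11.

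**Figure D2:**
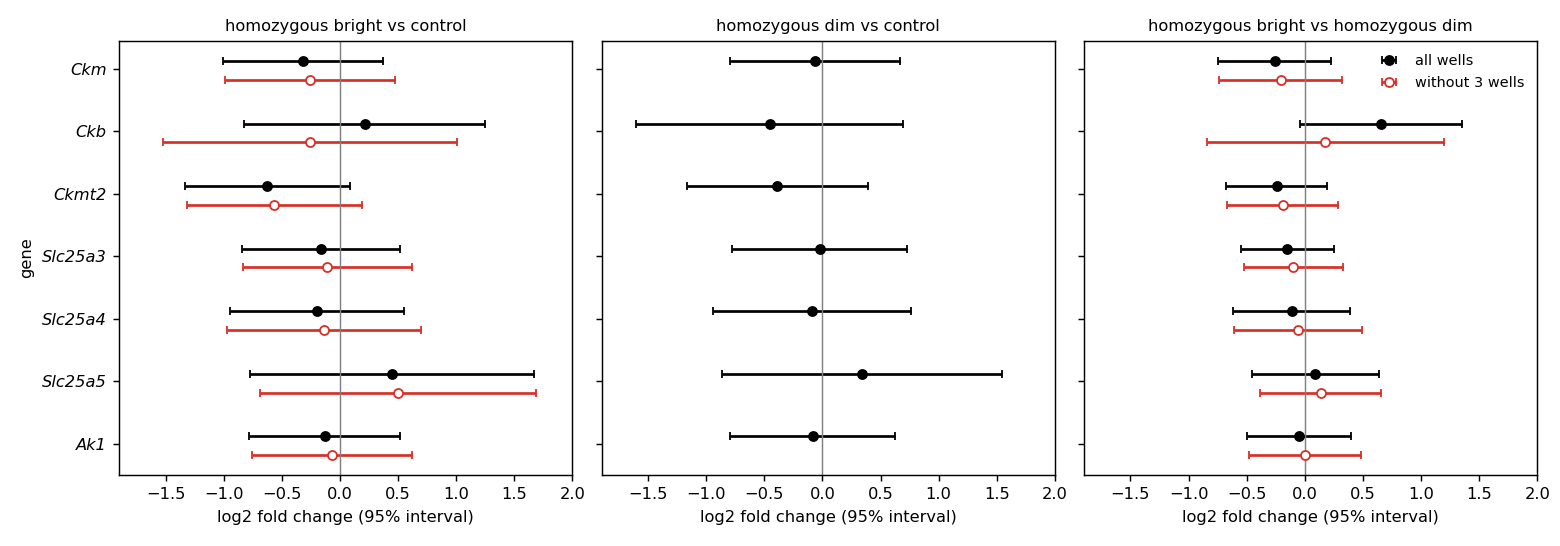
Log2 fold change of the 7 genes (horizontal axis, points) with 95% intervals (bars) from edgeR in the 3 comparisons, for all wells (filled) and without the 3 wells of mouse M25 that are low in cardiomyocyte markers (open; these wells are not in the second comparison). Every interval crosses 0, and the Ckb value of bright against dim CMs moves from 0.66 to 0.18.

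The share of an isoform within its pair does not depend on library size. Ckb made up 10.4% of the summed Ckm and Ckb counts in control mouse M26 (exact Clopper-Pearson 95% interval 10.002 to 10.8%) and 7.11% in M73 (6.25 to 8.05%). It made up 11.8% in bright and 5.33% in dim CMs of M25, 13.4% in bright and 8.91% in dim CMs of M116, and 11.5% and 11.8% in the heterozygous libraries labelled bright and dim. These intervals, like those below, cover counting error only, and counts from amplified libraries without molecular identifiers are not independent molecules. As log2 of the ratio of Ckm to Ckb, the group means were 3.41 ± 0.42 in control, 2.80 ± 0.15 in bright and 3.75 ± 0.56 in dim CMs (SD, n = 2 mice).

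The bright mean was lower by 0.61 than control (two-sided exact permutation test over mice, p = 0.3333, where 0.33 is the smallest value possible) and lower by 0.95 than dim (exact paired permutation, p = 0.5, the smallest possible with 2 pairs). The dim mean exceeded control by 0.34 (exact permutation p = 0.6667). With 1 sum left out, the first difference ran from −0.91 without control mouse M26 to −0.31 without control mouse M73, the second from −1.35 without dim CMs of M116 to −0.55 without those of M25, and the third from −0.055 without dim CMs of M25 to 0.74 without those of M116. The first difference rested on the 3 wells: without them the Ckb share of bright M25 CMs was 5.26% (4.95 to 5.59%), overlapping the 5.33% of its dim CMs (5.03 to 5.64%), and the difference between bright and control was 0.022. The difference between bright and dim was then −0.32. In mouse M116, whose wells carry 2 library tags in both classes, the Ckb share was 12.4% in bright and 8.04% in dim CMs with the tag GL9989-2 and 14.5% and 10.2% with GL9989-3, so it was higher in bright CMs under both tags. Without wells rich in markers of other cell types, the shares in M25 were 5.20% in bright and 4.72% in dim CMs. For M72, whose labels go against its transgene counts, the library with more hBAG had 11.8% and the one with less 11.5%, with overlapping intervals.

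**Figure D3:**
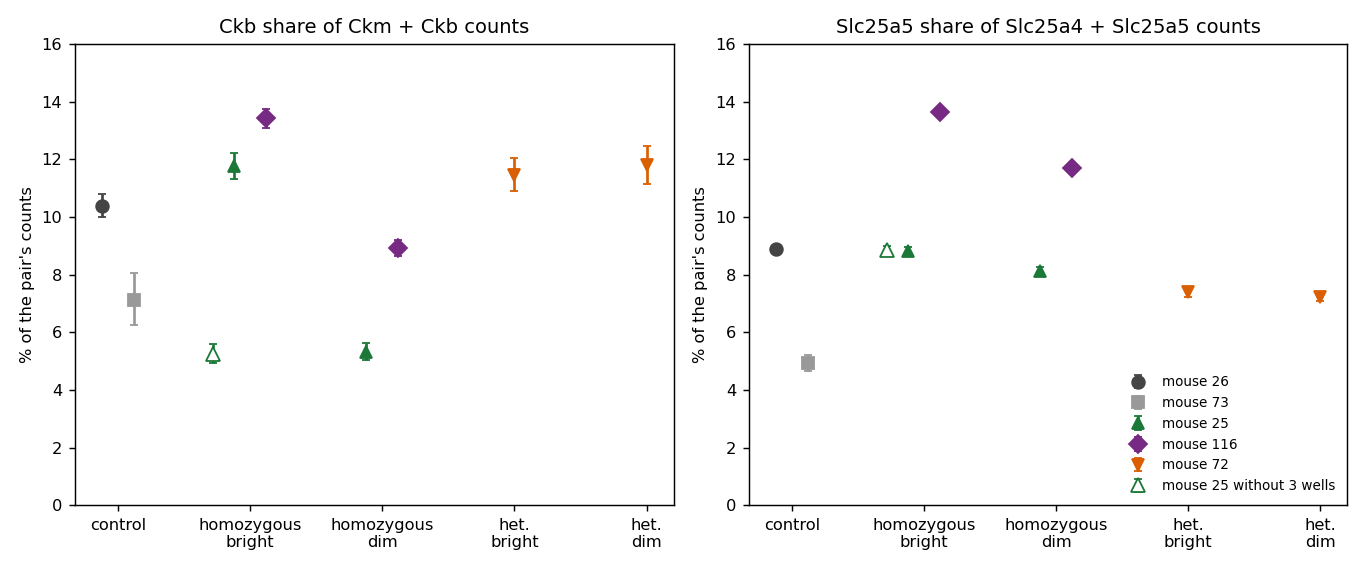
Ckb as a percentage of Ckm plus Ckb counts (left) and Slc25a5 as a percentage of Slc25a4 plus Slc25a5 counts (right) in each sum, with exact 95% intervals for counting error; the open triangle is mouse M25 bright without 3 wells. The Ckb share of that sum drops from 11.8% to 5.26%, and the Slc25a5 share orders by mouse, with M73 at 4.94% and bright CMs of M116 at 13.7%.

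For the translocases, Slc25a5 made up 8.90% of the pair in control mouse M26 (8.78 to 9.03%) and 4.94% in M73 (4.66 to 5.22%). It made up 8.83% in bright and 8.13% in dim CMs of M25, 13.7% in bright and 11.7% in dim CMs of M116, and 7.40% and 7.24% in the heterozygous libraries labelled bright and dim. In M25 and M116 bright CMs had the larger share. In M72 the intervals of the libraries labelled bright (7.24 to 7.56%) and dim (7.09 to 7.40%) overlapped, and the median well had 6.04% and 6.64%. The spread between mice was larger: the log2 ratio of Slc25a4 to Slc25a5 was 3.81 ± 0.65 in control, 3.01 ± 0.50 in bright and 3.21 ± 0.41 in dim CMs (SD, n = 2 mice). The differences were −0.80 for bright against control and −0.60 for dim against control (exact permutation p = 0.6667 each, smallest possible 0.33), and −0.19 for bright against dim (exact paired permutation p = 0.5, the smallest possible). The value −0.80 became −0.34 without control mouse M73 and −1.25 without control mouse M26, and the value −0.60 became −0.15 and −1.06. Under the tags GL9989-2 and GL9989-3 of M116 the Slc25a5 share was 13.0% and 14.3% in bright and 11.8% and 11.6% in dim CMs.

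Single wells show how evenly each gene was carried. Over the 219 wells with at least 1000 detected features, Ckm, Ckmt2, Slc25a3, Slc25a4 and Slc25a5 had counts in all 219, Ak1 in 216 and Ckb in 199. The interquartile range divided by the median, computed within each sum, had a median over the 8 sums of 0.257 for Slc25a4, 0.302 for Slc25a3, 0.387 for Ckm, 0.424 for Ak1, 0.458 for Ckmt2 and 0.616 for Slc25a5. For Ckb it was 1.44. To compare detection at 1 depth, each well was thinned to 100000 counts, which left out 4 and 1 shallower wells of control mice M26 and M73, 7 bright and 2 dim wells of M116, and 4 and 2 wells of M72 labelled bright and dim. Ckb was then seen in 19 of 20 and 5 of 8 control wells, in 18 of 21 and 45 of 52 bright wells of M25 and M116, in 14 of 18 and 45 of 48 of their dim wells, and in 19 of 23 and 22 of 24 wells of the heterozygous libraries labelled bright and dim. At full depth it had counts in 19 of 24 and 6 of 9 control wells, 18 of 21 and 49 of 59 bright wells, 16 of 18 and 48 of 50 dim wells, and 21 of 27 and 23 of 26 heterozygous wells. Within each class the median well of Ckb ran from 27.1 CPM in M73 to 131 CPM in M26, and the homozygous sums lay between, at 47.5 and 87.0 CPM in bright and 55.5 and 88.4 CPM in dim CMs of M25 and M116.

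The Ckb share of single wells covered a wide range. Its median over wells was 9.79% and 4.07% in control mice M26 and M73, 4.55% and 11.1% in bright and 4.46% and 7.44% in dim CMs of M25 and M116, and 9.72% and 8.57% in the heterozygous libraries. Ckb outnumbered Ckm in 1 of the 219 wells, the well of M25 with fibroblast markers, where it made up 99.9% of the pair. Wells with more than 20% Ckb numbered 12 of 56 in bright and 4 of 48 in dim CMs of M116, 2 of 20 and 0 of 18 in those of M25, 5 of 24 and 5 of 25 in the heterozygous libraries labelled bright and dim, and 1 of 20 and 2 of 8 in control mice M26 and M73. Slc25a5 stayed under its partner in all 219 wells, with a highest share of 44.4%, in a bright well of M116.

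**Figure D4:**
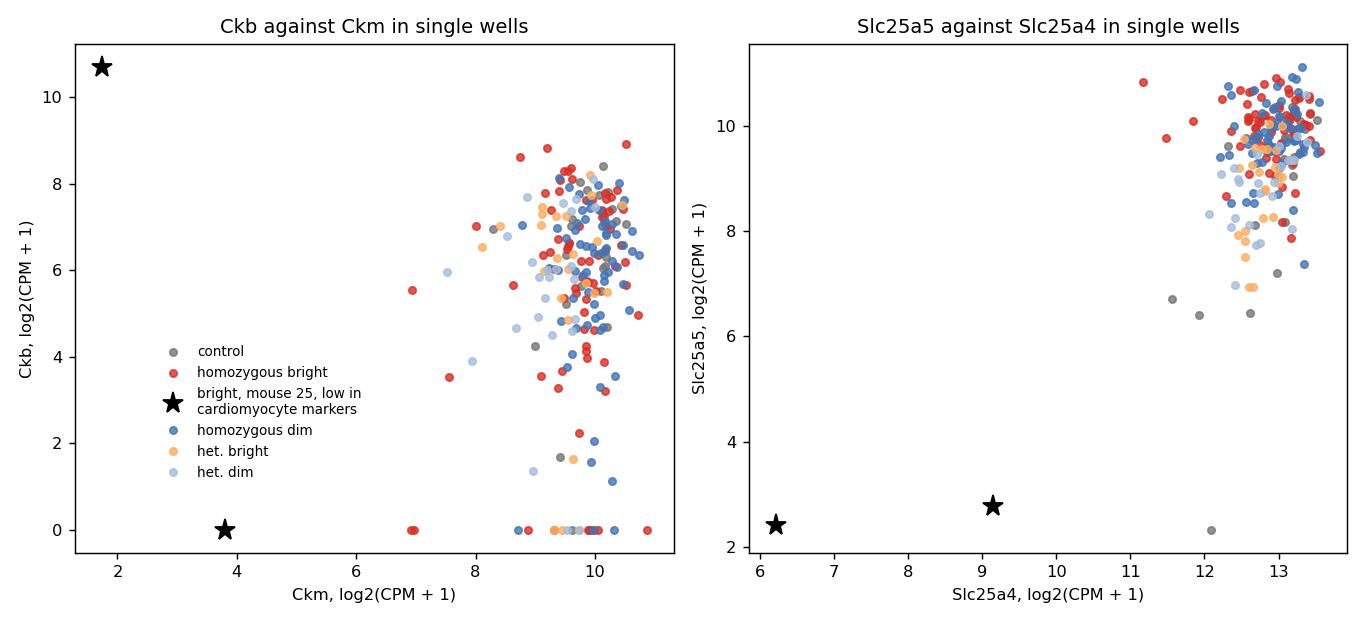
Ckb against Ckm (left) and Slc25a5 against Slc25a4 (right) in the 219 wells with at least 1000 detected features, both axes as log2(CPM + 1), coloured by genotype label; stars mark 2 of the 3 wells low in cardiomyocyte markers, since the third has 938 detected features. Most wells hold Ckm in a narrow band while Ckb runs down to 0, and the star at the upper left is the well with 1656 CPM of Ckb.

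Across wells, levels on the log2(CPM + 1) scale were compared after subtracting the mean of the same mouse and class. Over 219 wells Ckm, Ckmt2, Slc25a3 and Slc25a4 correlated with each other with Pearson r of 0.68 to 0.78, but these values fell when the 2 of the 3 wells low in cardiomyocyte markers that are among the 219 were left out. Over the 217 remaining wells r was 0.55 between Ckm and Slc25a4, 0.34 between Slc25a3 and Slc25a4, 0.27 between Ckm and Ckmt2, and 0.14 to 0.22 for the other 3 pairs of these 4 genes. The highest value of Ckb with another member was 0.24, with Slc25a5. Ak1 correlated at 0.57 with the depth of the well, which all features of a well share, and these correlations are descriptions over wells of 5 mice.

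The nearest features, among 6430 with a mean of at least 10 CPM, were found for each gene, 3 at a time. Over 219 wells they were Mb (myoglobin), Fabp3 (the heart fatty acid binding protein) and Eno3 (muscle enolase) for Ckm, with r of 0.84, 0.81 and 0.80. For Ckmt2 they were Atp5b, Tpm1 and Actc1 (0.80, 0.78 and 0.77), for Slc25a3 Myl3, Mdh1 and Cycs (0.82, 0.81 and 0.81), and for Slc25a4 Atp5a1, Cox4i1 and Uqcrq (0.86, 0.85 and 0.85). Slc25a5 was closest to Atp5b, Atp5a1 and Actc1 (0.69, 0.68 and 0.68), and Ak1 to Gpx4, Ndufc2 and Ndufs5 (0.76, 0.76 and 0.74). Ckb had no close neighbour: BC004004, Psma7 and mt-Tp reached 0.32, 0.32 and 0.32. These ranks rested largely on 2 of the wells low in cardiomyocyte markers. Without them, Mb and Eno3 remained the nearest to Ckm at 0.60 and 0.59, Ak1 kept the same 3 neighbours at 0.71 to 0.75, and the highest value for Ckmt2 fell to 0.33.

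Markers of other cell types were low and uneven. The 6 fibroblast markers summed to 22.9 to 2238 CPM over the 8 sums, the highest being bright CMs of M25, with Pdgfra at 0 in 3 sums. The 6 endothelial markers summed to 60.1 to 193 CPM, the 6 immune markers to 0.264 to 59.8 CPM with Ptprc at 0 in 6 sums, and the 4 erythroid markers to 0.173 to 986 CPM, the highest being the heterozygous library labelled bright. The 5 smooth muscle and pericyte markers summed to 323 CPM in control mouse M73, the lowest, and 1642 CPM in bright CMs of M116, the highest, which are also the sums lowest and highest in Ckb and Slc25a5, with Myh11 at 0 in 7 sums and Tagln in 4. Over wells, Ckb correlated with the smooth muscle list at 0.26, with the fibroblast list at 0.03 and with the cardiomyocyte list at −0.08, and Ckm at 0.37, −0.26 and 0.76 (219 wells, the wells low in cardiomyocyte markers included). The part of these cell types in the Ckb levels was not tested beyond leaving out wells, and no well was left out for its smooth muscle markers. Without all 25 wells that held over 1000 CPM of fibroblast, endothelial, immune and erythroid markers together, 0 of 7 members passed in each comparison, and Ckb stood at 58.6 and 130 CPM in bright and 54.6 and 93.0 CPM in dim CMs of M25 and M116.

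Within a class, hBAG and the members were compared over wells by Spearman's rho. For Ckb it was 0.46 in the 20 bright wells of M25, which include the well with fibroblast markers, 0.28 in the 56 of M116, 0.02 and −0.07 in their dim wells, and −0.43 and −0.05 in the heterozygous libraries labelled bright and dim. The signs differed between mice, and for Ckm rho lay between −0.27 and 0.09 in these 6 sets.

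The surrounding pathway gave no call in edgeR either. Of the 40 genes of creatine synthesis and uptake, other adenylate kinases, carriers, outer membrane pores, nucleoside diphosphate kinases, AMP handling and AMP-activated kinase, 31 could be tested in bright against control CMs. Of these, 0 passed in edgeR and 1 (Ampd2) had an unadjusted p under 0.05, against 6.55% of all features. Their log2 fold changes were above 0 for 19 and below 0 for 12, with a median of 0.11 beside a median of 0.11 over all features, and for the 7 members the median was −0.17. In dim against control CMs 0 of 32 passed in edgeR, with 2 (Gatm and Ampd2) at an unadjusted p under 0.05, against 6.22% of all features. The median was 0.18 beside 0.10. In bright against dim CMs 0 of 32 passed in edgeR, with 2 at an unadjusted p under 0.05 (Adsl and Gatm, named like the former after their values were seen), against 4.12% of all features. The median was −0.04 beside −0.01. DESeq2 called 1 of these genes, Gatm, in bright against dim CMs, and limma called 0 in each comparison.

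The genes of this list at the ends of the bright against control comparison were all at low levels. Ampd2, an AMP deaminase, stood at 0.0511 and 0 CPM in control and 6.66 and 5.46 CPM in bright CMs. Slc25a24, a mitochondrial ATP-magnesium/phosphate carrier, stood at 0.153 and 0.732 CPM in control and 0 and 7.95 CPM in bright CMs, and Prkaa1, a catalytic subunit of AMP-activated kinase, at 2.76 and 0.244 CPM against 4.97 and 14.1 CPM. At the other end, Ak4, a mitochondrial adenylate kinase, stood at 16.03 and 1.22 CPM in control and 0.529 and 2.74 CPM in bright CMs. Slc25a31, the testis translocase, stood at 5.97 and 0 CPM against 0 and 3.23 CPM, and Prkab2, a regulatory subunit of AMP-activated kinase, at 14.3 and 36.9 CPM against 32.1 and 10.2 CPM. For Ak4, Slc25a24, Slc25a31 and Prkab2 the 2 groups overlapped.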

How the data were processed

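Single CMs were picked by hand, amplified with SMART-seq2 and sequenced as paired reads of 75 bases, 1 well per sample. Per the study's methods and the labels' processing notes, the authors aligned the reads with STAR (bcl2fastq is named too), adding human BAG3 and eGFP transcripts to the mouse reference, and took the gene totals that its quantMode gives. The deposited values are raw counts, not normalized. Genome build, annotation and strand column were not given in the sources used here, and reads matching several places are not counted, which lowers genes with near-identical copies. All 234 columns were matched to samples by their labels, and 0 other columns were left.

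From the deposited counts, sums per mouse and brightness class were compared with edgeR 4.0.16 (R 4.3.3): filterByExpr, TMM, glmQLFit, glmQLFTest and Benjamini-Hochberg adjustment over all features tested, with a threshold of 0.05; 95% intervals use the standard error and degrees of freedom of that fit. Cells of a mouse are not replicates, and with 2 mice per group p-values measure the spread between these mice. The heterozygous class is 1 mouse and was not tested. All 7 genes passed the filter in each comparison. Isoform ratios were compared with exact permutation tests over mice, two-sided, and shares have exact binomial intervals. Bright and dim CMs of M25 and M116 share an animal. The log2 difference between these animals in the bright class and in the dim class had r = 0.075 over 13439 features, and the fit with the mouse as a block is an alternative. The edgeR script was run on simulated, independent sums as a check of the code, which does not measure its power for the members. Alternatives used DESeq2 1.42.0, limma 3.58.1 and a Wilcoxon test over wells.

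All members are named; of the pathway list, genes past the threshold were to be named, or else the 3 at each end in bright against control CMs; likeness was ranked as described beside it. The members and lists were chosen with earlier results of these data known. Removing the 3 wells low in cardiomyocyte markers (under 10000 CPM) or the wells over 1000 CPM of other markers was chosen after seeing the data. Sequences were taken from GENCODE vM21 and from RefSeq (GRCm38.p6), for all 7 genes by symbol, using the longest complete coding sequence and then the shortest transcript.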

Additional observations from a re-analysis of the deposited data

Results flagged for a closer look

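Bright and dim CMs differed in opposite directions in the homozygous and the heterozygous mice for 4 members, in CPM of the sums, and the difference was not tested because only 1 heterozygous mouse was measured. The library of mouse M72 labelled bright held 1.29 times the Ckm of the library labelled dim, where bright CMs held 0.873 and 0.828 times in M25 and M116. The factors were 1.02 against 0.844 and 0.883 for Ckmt2, 1.05 against 0.891 and 0.950 for Slc25a3, and 0.964 against 1.02 and 1.15 for Slc25a5. In M72 the transgene level also goes against the labels, with 105 CPM of hBAG in the library labelled bright and 251 CPM in that labelled dim. Taken the other way, as the library labelled dim over that labelled bright, the factors of M72 are 0.777 for Ckm, 0.982 for Ckmt2, 0.948 for Slc25a3 and 1.04 for Slc25a5, the same direction as in M25 and M116. The 4 members were picked for lying opposite to both homozygous mice, so this agreement was fixed by the choice and says nothing about the labels. In the median well Slc25a5 of M72 had a factor of 1.08 (labelled bright over labelled dim), on the same side as 1.03 and 1.15 in M25 and M116. Turned in this way, the sums of Ckb (0.803 against 2.07 and 1.31) and Slc25a4 (1.06 against 0.929 and 0.963) go against both homozygous mice, which follows from the same choice. However, bright CMs of M25 held 56.8 CPM of Ckb without the 3 wells low in cardiomyocyte markers, beside 61.6 CPM in dim CMs. In the median well the factors of labelled bright over labelled dim in M25, M116 and M72 were 0.856, 0.984 and 1.42 for Ckb and 0.994, 0.969 and 1.02 for Slc25a4. Thus which members differ in direction depends on the brightness labels of M72, and for Ckb, Slc25a3, Slc25a4 and Slc25a5 also on whether sums or median wells are read (Slc25a3 had a factor of 1.00 in the median well of M25).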

How the results depend on the processing

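None of the 43 alternatives run made a member pass the adjusted threshold. In the Wilcoxon runs among them, most members fell below the minimum fold change and could not be called. Only Ckmt2 and Slc25a5 could be in bright against control, Slc25a5 alone in dim against control, and no member in bright against dim CMs. Of 280 alternative log2 fold changes of members, 236 kept the direction of the main value. None of the others came from a called value, and their cause was not tested. Bright against control, the log2 fold change was 0.11 for Ckm and 0.038 for Slc25a3 with limma and equal weight for each well, 0.14, 0.10 and 0.18 for Slc25a3, Slc25a4 and Ak1 with library sizes alone, and −0.25 for Ckb both without wells rich in markers of other cell types and without the 3 wells low in cardiomyocyte markers. Dim against control, it was 0.77, 1.04, 0.52, 0.18 and 0.43 for Ckm, Ckb, Slc25a3, Slc25a4 and Ak1 with limma, 0.22, 0.26, 0.18 and 0.20 for Ckm, Slc25a3, Slc25a4 and Ak1 with library sizes alone, and for Slc25a3 0.015 without a filter, 0.0002 with the start of the library tag as a block and 0.022 without wells rich in other markers. Bright against dim, it was −0.33 for Ckb and −0.28 for Slc25a5 with limma, and for Ak1 0.028 with the heterozygous mouse added to the replicate block and without the 3 wells 0.0026, or 0.0003 with the replicate block.

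Leaving out 1 sum at a time, Ckmt2 ranged from −0.88 to −0.30 in bright and −0.65 to −0.047 in dim against control CMs, and with library sizes alone it was −0.32 and −0.11. The log2 fold changes whose range crossed 0 ran, bright against control, from −0.19 to 0.81 (Ckb), −0.38 to 0.11 (Slc25a3), −0.47 to 0.15 (Slc25a4), −0.12 to 1.41 (Slc25a5) and −0.26 to 0.021 (Ak1). Dim against control they ranged from −0.26 to 0.18 (Ckm), −0.87 to 0.17 (Ckb), −0.26 to 0.27 (Slc25a3), −0.37 to 0.28 (Slc25a4), −0.23 to 1.33 (Slc25a5) and −0.23 to 0.086 (Ak1). Bright against dim they ranged from −0.27 to 0.065 (Slc25a4), −0.13 to 0.28 (Slc25a5) and −0.11 to 0.022 (Ak1). A lone sum left in a group was assumed to vary like the others.

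The log2 ratio of Ckm to Ckb in bright minus control CMs was −0.042 as a median over wells, 0.023 without wells rich in other markers and 0.022 without the 3 wells. In bright minus dim CMs it was −0.40, −0.46 and −0.32 under these settings. One sum left out at a time, it ranged from −0.91 to −0.31 in bright minus control, −0.055 to 0.74 in dim minus control and −1.35 to −0.55 in bright minus dim CMs, and that of Slc25a4 to Slc25a5 from −1.25 to −0.34, −1.06 to −0.15 and −0.55 to 0.16. With the paired mice as a replicate block and the heterozygous mouse added, the ratio differences of bright and dim CMs were −0.62 for Ckm to Ckb and −0.14 for Slc25a4 to Slc25a5. The replicate block left 0 members called. Over all features the number of calls depended on the tool: DESeq2 called 92, 53 and 91 features in the 3 comparisons, edgeR without a filter 163, 58 and 217, limma 4, 1 and 2, the fit of all 8 sums 5, 1 and 0, and the library tag block 10 and 12 in the comparisons with control, beside 2, 0 and 0. Leaving out 1 sum gave 0 to 41 calls in bright against control, 3 to 827 in dim against control and 0 to 74 in bright against dim CMs, the highest without bright M116, control M26 and bright M116. Control mouse M73, the shallowest sum, limits the comparisons with control.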
